A study of Mus musculus with 12 samples.

Results

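The 41 genes described here form a list of kinetochore, checkpoint, chromosomal passenger and anaphase control genes. All 41 were measured, each by 1 probe set, among 19938 genes with a probe set of their own. Where a gene had several probe sets, the one with the highest mean would have been taken. No filter on low values was applied, so that none was left out. The kinetochore is the protein assembly built on each centromere that holds a chromosome to the microtubules of the mitotic spindle. The spindle checkpoint is the signal that kinetochores send while they are unattached, and it delays the separation of sister chromatids by restraining the anaphase-promoting complex (APC/C). Muscle fibres no longer divide, so that in muscle of young mice these genes are used by the mononucleated cells that still do, such as satellite cells and myoblasts, fibroblasts, endothelial cells and macrophages.

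The series compared quadriceps muscle of 7-day-old C57Bl/6 mice that were cofilin-2 null with that of wild type littermates, and asked how the loss of cofilin-2 (Cfl2), a muscle protein that severs actin filaments, changes gene expression. Each of 12 Affymetrix Mouse Gene ST arrays carried RNA of 1 mouse, with 6 arrays labelled KO and 6 labelled WT. The sex of the mice is not given, and precision is set by the 6 arrays a group. Values are log2 levels, and differences are the mean of the arrays labelled KO minus the mean of those labelled WT. Muscle fibre markers were bright on all arrays, with a mean log2 level over 6 genes of 13.10 to 13.17 on the arrays labelled KO and 13.22 to 13.26 on the arrays labelled WT.

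The targeted gene went against the labels. Cfl2 had a lowest, median and highest log2 level of 12.31, 12.40 and 12.43 on the arrays labelled KO, against 4.92, 6.06 and 7.71 on the arrays labelled WT, and no array followed its label. Its difference was 6.32 ± 0.36 (SE, adjusted p = 1.98e-07, from limma with Benjamini-Hochberg adjustment over 21789 probe sets, as for every adjusted p given). Whether the probe set covers the deleted exons was not examined. Why Cfl2 was higher on the arrays labelled KO was not tested. The labels were kept as deposited, and they set all directions below. For most mitosis genes this is the opposite of the direction in the text of the study. For some spindle genes, Fbxo5 and Kif2c among them, the text has the same direction as the labels. The study also lists Cfl2 and Lep among its most reduced genes, and both were higher on the arrays labelled KO. The difference of Lep was 2.12 ± 0.36 (SE, adjusted p = 0.000545), and the other genes of that list were not examined.

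Nearly all kinetochore and checkpoint genes had higher levels in the group labelled KO. Of the 41 genes, 36 rose, 1 fell and 4 did not pass an adjusted p of 0.05. Of all 21789 tested probe sets, 31.9% were called, 19.5% as higher and 12.4% as lower. In whole muscle, more cells of a type and more RNA per cell cannot be told apart. The median log2 level of an array ran from 6.35 to 6.41 on the arrays labelled KO and from 6.42 to 6.46 on those labelled WT. With each array centred on its median, 77.8% of the called probe sets were higher, against 61.1% in the values as deposited. With this centring 39 of the 41 genes rose and 1 fell. The largest differences were those of the checkpoint gene Mad2l1, which was 2.10-fold higher, followed by Nuf2 of the Ndc80 complex (1.90-fold), the checkpoint kinase Bub1 (1.88-fold), the centromere genes Cenpm (1.78-fold) and Cenpn (1.78-fold) and the shugoshin Sgo2a (1.73-fold). The 1 gene that fell was Zwint, which encodes a partner of the scaffold protein Knl1. The 4 that did not pass were Cenpo, Mad1l1, Ska1 and Espl1. At a fold of at least 1.5, 18 of the 41 were called higher, against a background of 2.91% of probe sets. The median log2 difference was 0.55 over the 41 genes and -0.02 over all probe sets tested. The values of all 6 arrays labelled KO lay above those of all 6 labelled WT for 20 genes, a pattern found in 10.5% of probe sets, and below them for 1 gene, Zwint, as in 4.92% of probe sets.

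**Figure D1:**
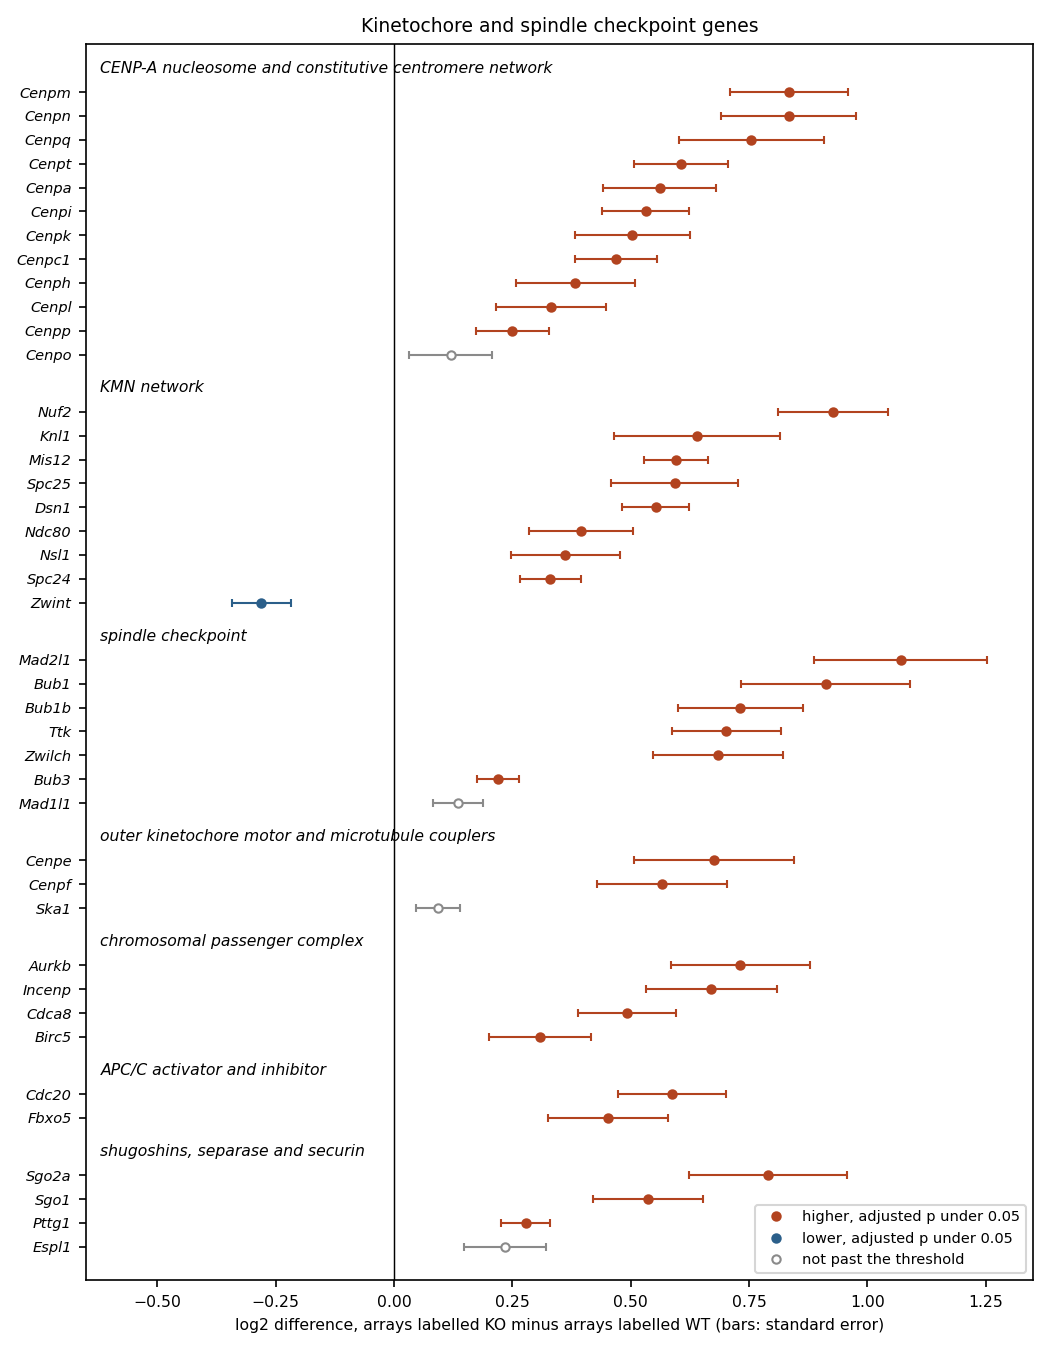
Log2 difference of the 41 genes, arrays labelled KO minus arrays labelled WT (horizontal axis, bars give the standard error), ordered by size within each complex. Filled points passed an adjusted p of 0.05, with 36 genes to the right of 0 and Zwint to the left, and the 4 open points did not.

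Promoter letters are shown for the 6 genes with the largest differences past the threshold and for Zwint, the exception. Zwint was chosen after its values were seen. Whether promoter motifs bear on the differences was not tested. Windows run from 250 bases before to 50 bases after the start site, 5′ to 3′ on the strand of the gene, and come from RefSeq (build GRCm38.p6). Genes of the late cell cycle are known for CCAAT boxes, which the factor NF-Y binds, near elements spelled TTTGAA or TTTAAA, to which the DREAM and MuvB complexes bind, while E2F factors bind sequences such as TTTGGCGC and TTTCCCGC. Capitals mark every match to these 5 motifs on either strand, and no matches overlap in the windows shown.
Mad2l1 (chr6:66534971-66535270, plus strand): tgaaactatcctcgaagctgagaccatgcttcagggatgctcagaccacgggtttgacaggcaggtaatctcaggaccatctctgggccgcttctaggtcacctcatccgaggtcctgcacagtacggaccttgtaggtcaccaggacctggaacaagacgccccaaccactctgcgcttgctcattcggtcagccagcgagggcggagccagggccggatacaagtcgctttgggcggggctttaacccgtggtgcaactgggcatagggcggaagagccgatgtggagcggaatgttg
Nuf2 (chr1:169531415-169531714, minus strand): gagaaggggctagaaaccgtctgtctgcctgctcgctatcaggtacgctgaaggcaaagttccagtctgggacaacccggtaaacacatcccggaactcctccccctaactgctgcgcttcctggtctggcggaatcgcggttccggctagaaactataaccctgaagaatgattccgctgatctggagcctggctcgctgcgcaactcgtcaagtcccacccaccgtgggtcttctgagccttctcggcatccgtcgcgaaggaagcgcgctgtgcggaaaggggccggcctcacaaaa
Bub1 (chr2:127831810-127832109, minus strand): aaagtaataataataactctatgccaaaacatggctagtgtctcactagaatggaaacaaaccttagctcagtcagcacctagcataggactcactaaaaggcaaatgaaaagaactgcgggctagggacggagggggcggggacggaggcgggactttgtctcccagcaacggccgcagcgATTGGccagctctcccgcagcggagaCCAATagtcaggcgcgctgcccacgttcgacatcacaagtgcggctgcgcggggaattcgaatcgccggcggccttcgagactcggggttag
Cenpm (chr15:82244287-82244586, minus strand): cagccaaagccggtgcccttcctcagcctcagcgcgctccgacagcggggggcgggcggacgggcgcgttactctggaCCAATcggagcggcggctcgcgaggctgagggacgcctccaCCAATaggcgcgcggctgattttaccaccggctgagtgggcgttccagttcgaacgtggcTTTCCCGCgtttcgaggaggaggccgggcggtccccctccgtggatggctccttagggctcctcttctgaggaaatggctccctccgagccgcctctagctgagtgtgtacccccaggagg
Cenpn (chr8:116921490-116921789, plus strand): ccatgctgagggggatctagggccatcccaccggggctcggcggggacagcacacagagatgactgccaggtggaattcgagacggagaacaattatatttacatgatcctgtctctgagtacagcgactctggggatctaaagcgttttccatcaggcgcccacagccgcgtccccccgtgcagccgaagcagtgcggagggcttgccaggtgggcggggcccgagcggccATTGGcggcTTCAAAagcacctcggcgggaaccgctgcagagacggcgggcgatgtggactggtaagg
Sgo2a (chr1:57985090-57985389, plus strand): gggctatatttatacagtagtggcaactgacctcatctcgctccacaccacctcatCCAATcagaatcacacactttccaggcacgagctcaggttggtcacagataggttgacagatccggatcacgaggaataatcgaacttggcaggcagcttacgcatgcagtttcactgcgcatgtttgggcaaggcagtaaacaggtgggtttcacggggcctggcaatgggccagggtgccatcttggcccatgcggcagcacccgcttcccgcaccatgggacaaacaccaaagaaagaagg
Zwint (chr10:72654596-72654895, plus strand): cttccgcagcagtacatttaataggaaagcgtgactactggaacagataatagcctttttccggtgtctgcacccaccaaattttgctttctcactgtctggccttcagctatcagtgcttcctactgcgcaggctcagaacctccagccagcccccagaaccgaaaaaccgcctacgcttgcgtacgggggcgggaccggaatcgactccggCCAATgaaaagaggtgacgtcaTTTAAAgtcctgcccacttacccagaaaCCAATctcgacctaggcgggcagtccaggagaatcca
The windows of Mad2l1 and Nuf2, the 2 largest rises, held none of the 5 motifs. Bub1 and Cenpm each held 2 CCAAT matches, Cenpm with a TTTCCCGC 71 bases before its start site. In Cenpn a CCAAT match on the opposite strand began 18 bases, and a TTTGAA match 9 bases, before the start site. Sgo2a held 1 CCAAT match, 194 bases before its start site. The window of Zwint held 2 CCAAT matches and a TTTAAA.

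A promoter window was found for 35 of the 41 genes, taking the outermost start where there were several. CCAAT on either strand was in 24 of the 35 windows (68.6%), against 38.0% of the windows of 27025 genes. TTTGAA was in 14 (40.0%, against 18.2%) and TTTAAA in 9 (25.7%, against 13.1%). Windows with CCAAT and at least 1 of TTTGAA and TTTAAA numbered 15 (42.9%, against 11.0%). The longer E2F spellings were rarer in both sets of windows, with TTTCCCGC in 3 (8.57%, against 1.11%) and TTTGGCGC in 1 (2.86%, against 0.537%). The combination of CCAAT with TTTGAA or TTTAAA was in 13 of the 31 windows of genes that rose, and in 2 of the 4 others, those of Zwint and Espl1. The median GC content was 58.7% over the 35 windows and 52.7% over all. A match is a run of letters and not a shown binding site.

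The inner kinetochore holds the centromeric histone H3 variant Cenpa and the constitutive network of CENP proteins that sits on it through the whole cell cycle. Of its 12 genes, 11 rose and 1 did not pass, with a median log2 difference of 0.52. Cenpa itself was 1.48-fold higher, at 8.66 ± 0.18 on the arrays labelled KO and 8.10 ± 0.28 on the arrays labelled WT (SD, n = 6 each), with a difference of 0.56 ± 0.12 (SE, adjusted p = 0.0028), and its groups did not overlap. Cenpm had a lowest, median and highest level of 7.98, 8.38 and 8.69 on the arrays labelled KO, against 7.32, 7.46 and 8.0 on the arrays labelled WT. Only the lowest array labelled KO fell within the WT range, and the difference was 0.84 ± 0.12 (SE, adjusted p = 0.000227). For Cenpn, whose protein reads the Cenpa nucleosome, the values were 8.27, 8.46 and 8.60 on the arrays labelled KO, against 7.03, 7.55 and 8.11 on the arrays labelled WT. These groups did not overlap, and the difference was 0.83 ± 0.14 (SE, adjusted p = 0.00061).

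Other genes of the network rose by less than Cenpm and Cenpn. Cenpq differed by 0.76 ± 0.15 and Cenpt, a DNA-contacting protein that recruits the Ndc80 complex, by 0.61 ± 0.10 (SE). Cenpi, Cenpk and Cenpc1, the last of which binds the centromeric nucleosome, differed by 0.53, 0.50 and 0.47. The smallest rises past the threshold were those of Cenph (0.38 ± 0.13), Cenpl (0.33 ± 0.12) and Cenpp (0.25 ± 0.08 SE), whose adjusted p were 0.0328, 0.0416 and 0.0247. Their calls rested on the full set of arrays. The call of Cenph was lost without KO4, KO5, KO6, WT1 or WT6 (adjusted p from 0.051 to 0.0761). That of Cenpl was lost without KO4, KO5, KO6, WT1, WT2, WT5 or WT6 (adjusted p from 0.0751 to 0.0952), and that of Cenpp without KO1, KO4, KO5, KO6, WT1 or WT5 (adjusted p from 0.0524 to 0.0579). Cenpo, the 1 member of the network that did not pass, ranged from 7.12 to 7.45 on the arrays labelled KO and 6.87 to 7.53 on the arrays labelled WT, with a difference of 0.12 ± 0.09 (SE, adjusted p = 0.319).

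The KMN network of Knl1, the Mis12 complex and the Ndc80 complex is the part of the kinetochore that grips microtubules. Of its 9 genes, counting Zwint, 8 rose and 1 fell, and the median log2 difference was 0.55. Nuf2, a subunit of the Ndc80 complex, had a lowest, median and highest level of 7.48, 7.66 and 7.90 on the arrays labelled KO, against 6.35, 6.69 and 7.14 on the arrays labelled WT. The groups were separate, and the difference was 0.93 ± 0.12 (SE, adjusted p = 6.58e-05). The 4 subunits of that complex did not rise by the same amount, with Spc25 at 0.59 ± 0.13, Ndc80 at 0.40 ± 0.11 and Spc24 at 0.33 ± 0.06 (SE), although the differences between them were not tested. The groups of Nuf2 and Spc24 did not overlap, while 1 of the arrays labelled KO reached the WT range for Spc25 and 4 did for Ndc80.

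Knl1, the scaffold that docks the Bub kinases and was named Casc5 on older lists, had levels of 8.04, 8.11 and 8.26 on the arrays labelled KO, against 6.80, 7.49 and 8.20 on the arrays labelled WT. It was even on the arrays labelled KO and uneven on those labelled WT, where WT4 lay above 5 of the 6 arrays labelled KO and WT6 was lowest. The difference was 0.64 ± 0.17 (SE, adjusted p = 0.0127). Mis12 and Dsn1, of the complex that links the inner and outer kinetochore, rose with little spread between arrays. Mis12 lay at 7.54 ± 0.13 on the arrays labelled KO and 6.94 ± 0.11 on the arrays labelled WT (SD, n = 6 each), with a difference of 0.60 ± 0.07 (SE, adjusted p = 3.03e-05), the smallest adjusted p of the 41. Dsn1 differed by 0.55 ± 0.07 (SE, adjusted p = 7.37e-05), and for both genes the groups did not overlap. Nsl1 of the same complex differed by 0.36 ± 0.12 (SE, adjusted p = 0.0276), and its call was lost without KO3, KO4, KO5, KO6, WT1, WT5 or WT6 (adjusted p from 0.0518 to 0.0622).

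Zwint ran the other way. Its lowest, median and highest levels were 9.99, 10.26 and 10.35 on the arrays labelled KO, against 10.43, 10.47 and 10.66 on the arrays labelled WT, so that every array labelled KO lay below every array labelled WT. The difference was -0.28 ± 0.06 (SE, adjusted p = 0.00359), and it stayed negative and past the threshold under all 22 alternative settings. Within the groups its highest arrays were KO6 and WT2, and its lowest were KO1 and WT6.

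Of 7 spindle checkpoint genes, 6 rose and 1 did not pass, with a median log2 difference of 0.70. Mad2l1 encodes the protein whose closed form captures Cdc20. Its levels were 8.89, 9.10 and 9.39 on the arrays labelled KO, against 7.52, 7.98 and 8.74 on the arrays labelled WT, with no overlap and a difference of 1.07 ± 0.18 (SE, adjusted p = 0.000603). Bub1, a kinase of the outer kinetochore, had levels of 8.16, 8.34 and 8.44 on the arrays labelled KO, against 6.91, 7.33 and 8.02 on the arrays labelled WT. Its arrays labelled KO lay close together while those labelled WT spread, with WT1, WT2 and WT6 near 7 and WT3 at 8.02. The difference was 0.91 ± 0.18 (SE, adjusted p = 0.00163).

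Bub1b, which encodes the Cdc20-binding protein BubR1, differed by 0.73 ± 0.13 (adjusted p = 0.000893), and Ttk, the kinase that starts the checkpoint signal, by 0.70 ± 0.11 (SE, adjusted p = 0.000452). Zwilch, a subunit of the complex that brings dynein and the Mad proteins to kinetochores, differed by 0.69 ± 0.14 (SE, adjusted p = 0.00188). For these 3 genes the groups did not overlap. Bub3, the partner of both Bub kinases, rose by far less, with a range of 9.34 to 9.54 on the arrays labelled KO and 9.16 to 9.35 on the arrays labelled WT and with WT3 just inside the range of the arrays labelled KO. The difference was 0.22 ± 0.04 (SE, adjusted p = 0.00197). Mad1l1, which anchors Mad2l1 at the kinetochore, did not pass. It lay between 8.20 and 8.46 on the arrays labelled KO and between 8.07 and 8.25 on those labelled WT, with 5 arrays labelled KO above the highest labelled WT, a difference of 0.14 ± 0.05 (SE, adjusted p = 0.0655). It passed without KO4 (adjusted p = 0.0356) and with each array centred on its median (difference 0.19, adjusted p = 0.0166).

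**Figure D2:**
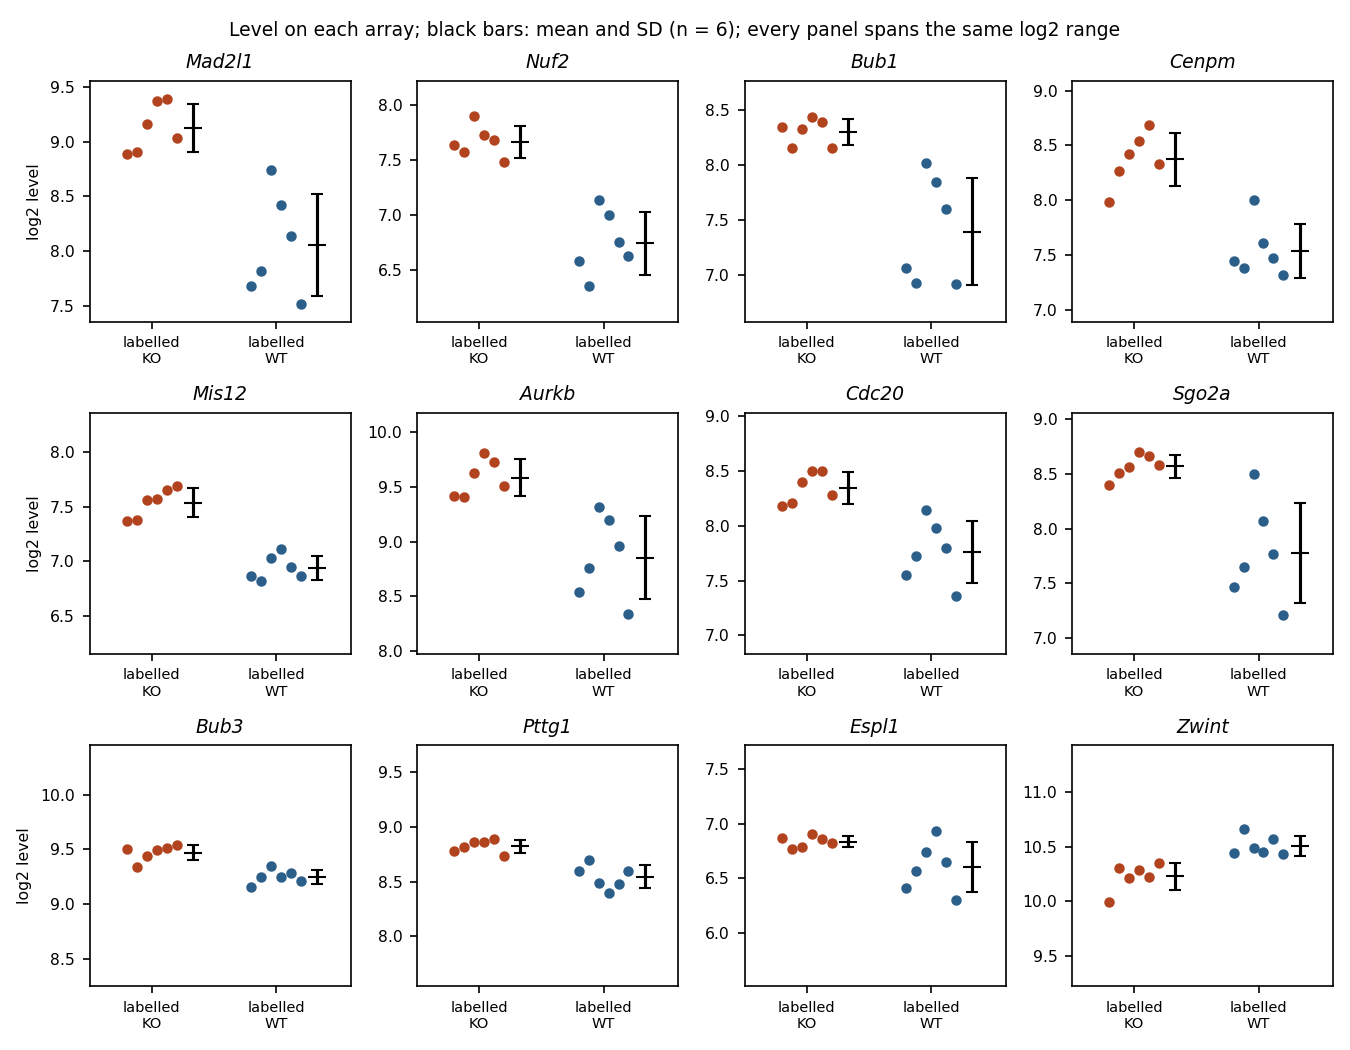
Log2 level of 12 genes on each array (vertical axis), with the arrays labelled KO on the left and those labelled WT on the right of each panel; black bars give the mean and SD (n = 6). Mad2l1 lay between 8.89 and 9.39 on the arrays labelled KO and between 7.52 and 8.74 on those labelled WT, while Zwint was lower on every array labelled KO.

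Among the genes that couple the kinetochore to moving microtubules, Cenpe and Cenpf rose and Ska1 did not pass. Cenpe, a kinesin that carries chromosomes toward the spindle equator, had levels of 6.97, 7.05 and 7.28 on the arrays labelled KO, against 5.71, 6.35 and 6.93 on the arrays labelled WT. Its groups did not overlap, and the difference was 0.68 ± 0.17 (SE, adjusted p = 0.00748). Cenpf had levels of 7.51, 7.64 and 7.79 on the arrays labelled KO, against 6.44, 7.09 and 7.47 on the arrays labelled WT. The lowest array labelled KO stood just above the highest labelled WT, and the difference was 0.57 ± 0.14 (SE, adjusted p = 0.00647). On both genes the array WT6 was far the lowest, at 5.71 and 6.44. Ska1 hardly varied, from 5.30 to 5.45 on the arrays labelled KO and 5.19 to 5.42 on the arrays labelled WT, a difference of 0.09 ± 0.05 (SE, adjusted p = 0.14). It passed without WT3 (adjusted p = 0.0298), and with quantile normalization (difference 0.17, adjusted p = 0.0158) or median centring (0.14, adjusted p = 0.0318).

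The chromosomal passenger complex corrects faulty attachments and is made of the kinase Aurkb and the proteins Incenp, Birc5 and Cdca8. All 4 genes rose, with a median log2 difference of 0.58. Aurkb had a lowest, median and highest level of 9.41, 9.57 and 9.81 on the arrays labelled KO, against 8.34, 8.86 and 9.32 on the arrays labelled WT, a difference of 0.73 ± 0.15 (SE, adjusted p = 0.00192). The scaffold Incenp had levels of 7.63, 7.77 and 7.87 on the arrays labelled KO, against 6.69, 7.08 and 7.54 on the arrays labelled WT, with a difference of 0.67 ± 0.14 (SE, adjusted p = 0.0023). For both the groups did not overlap. Cdca8, which encodes borealin, differed by 0.49 ± 0.10 (SE, adjusted p = 0.00261). Birc5, which encodes survivin, rose least, at 7.29 ± 0.13 on the arrays labelled KO and 6.98 ± 0.26 on the arrays labelled WT (SD, n = 6 each), a difference of 0.31 ± 0.11 (SE, adjusted p = 0.0411). Its call was lost without KO1, KO4, KO5, KO6, WT1, WT2, WT5 or WT6 (adjusted p from 0.0508 to 0.0895).

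Cdc20 activates the APC/C at anaphase and is what the checkpoint restrains, and Fbxo5 encodes an inhibitor of the APC/C that acts before mitosis. Both rose. Cdc20 had levels of 8.18, 8.34 and 8.50 on the arrays labelled KO, against 7.36, 7.76 and 8.14 on the arrays labelled WT, with separate groups and a difference of 0.59 ± 0.11 (SE, adjusted p = 0.00153). Fbxo5 had levels of 7.59, 7.92 and 8.22 on the arrays labelled KO, against 7.02, 7.49 and 7.79 on the arrays labelled WT, with a difference of 0.45 ± 0.13 (SE, adjusted p = 0.0151), and its groups overlapped, WT4 lying above the 2 lowest arrays labelled KO.

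Of the genes that guard and then release sister chromatids, the shugoshins Sgo1 and Sgo2a and the securin Pttg1 rose and the separase Espl1 did not pass. Sgo2a, which protects centromeric cohesin, had levels of 8.40, 8.57 and 8.70 on the arrays labelled KO, against 7.21, 7.71 and 8.50 on the arrays labelled WT. Only WT3 reached the range of the arrays labelled KO, and the difference was 0.79 ± 0.17 (SE, adjusted p = 0.00258). The mouse has a paralogue, Sgo2b, and whether the probe set also detects it was not tested. Sgo1 had levels of 7.19, 7.36 and 7.54 on the arrays labelled KO, against 6.52, 6.83 and 7.24 on the arrays labelled WT, with a difference of 0.54 ± 0.12 (SE, adjusted p = 0.003). Pttg1, which encodes the inhibitor of separase, had a small difference of 0.28 ± 0.05 (SE, adjusted p = 0.00114), yet its groups did not overlap, at 8.73 to 8.89 on the arrays labelled KO and 8.40 to 8.70 on the arrays labelled WT. Espl1, the protease that cuts cohesin, ranged from 6.77 to 6.90 on the arrays labelled KO and 6.30 to 6.93 on the arrays labelled WT. It lay just outside the threshold with a difference of 0.24 ± 0.09 (SE, adjusted p = 0.0516). Espl1 passed without WT3 or WT4 (adjusted p from 0.00577 to 0.0407), with median centring (adjusted p = 0.0192) and in some other settings.

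The same arrays were often the highest or the lowest of their labelled group. The mean log2 level over the 41 genes was 7.49, 7.45, 7.55, 7.68, 7.70 and 7.58 on KO1 to KO6, and 6.88, 7.00, 7.36, 7.30, 7.05 and 6.76 on WT1 to WT6. Among the arrays labelled KO, KO5 was the highest for 17 genes and KO4 for 14, while KO2 was the lowest for 18 and KO1 for 13. Among those labelled WT, WT3 was the highest for 25 genes and WT4 for 12, and WT6 was the lowest for 27. Of the 36 genes that rose, WT3 reached the range of the arrays labelled KO for 13, WT4 for 9, WT2 for 3 and WT6 for 1, and WT1 and WT5 for 0. Ties were counted for every array that shared them.

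**Figure D3:**
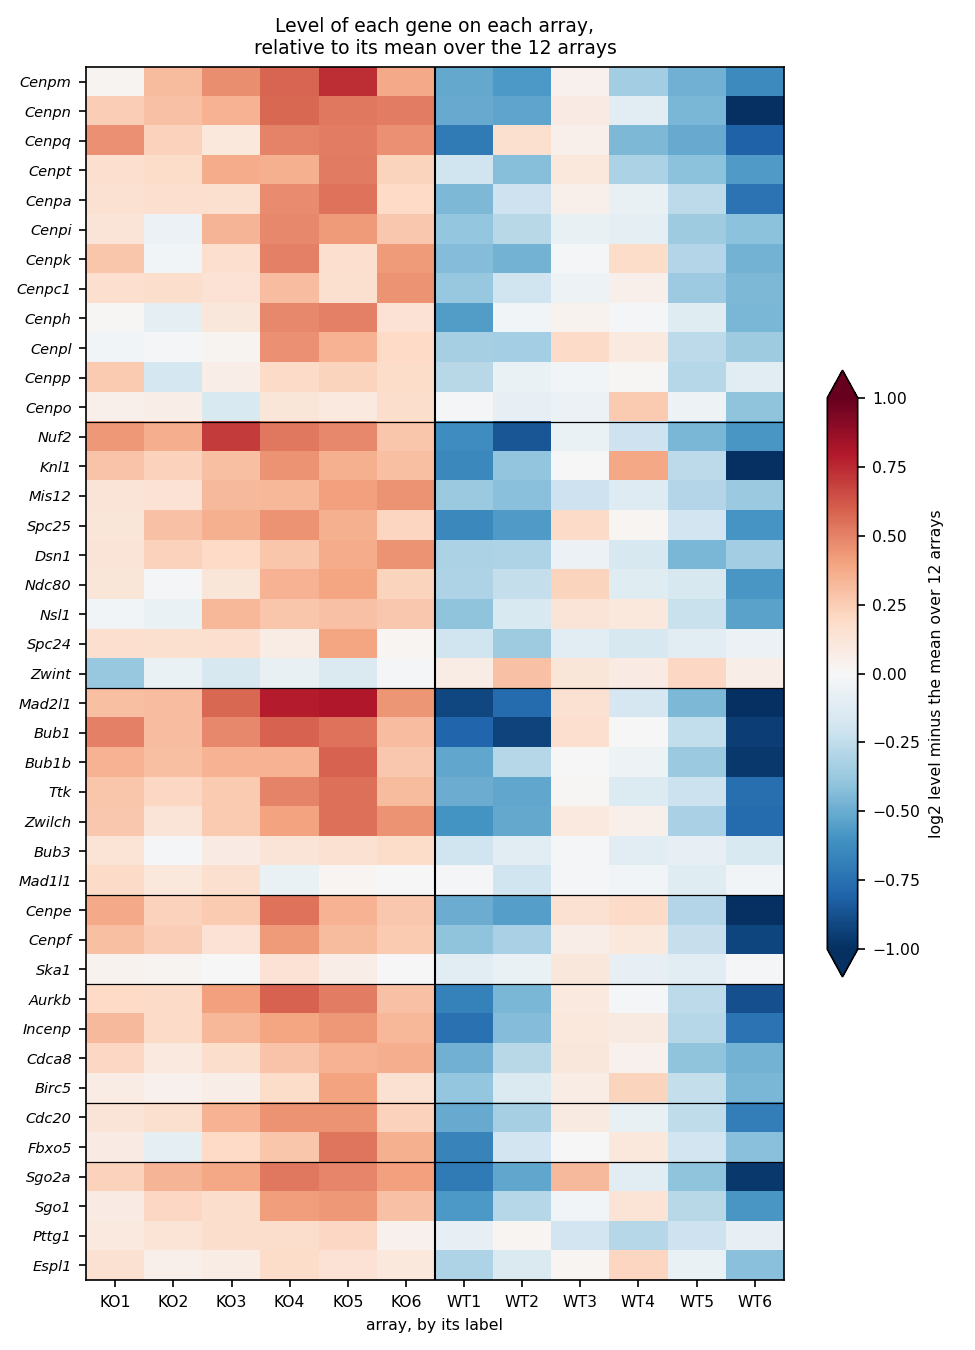
Log2 level of each of the 41 genes (rows, grouped by complex) on each array (columns, arrays labelled KO left of the black line and arrays labelled WT right of it), relative to the mean of the gene over the 12 arrays; red is above and blue below that mean, and values past 1 in either direction share the end colours. WT6 held the lowest level among the arrays labelled WT for 27 genes, and WT3 the highest for 25.

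The spread between arrays was wider in the group labelled WT. The median SD over the 41 genes was 0.13 on the arrays labelled KO and 0.27 on those labelled WT, and the SD was larger on the arrays labelled WT for 34 genes. Over all probe sets the median SDs were 0.09 on the arrays labelled KO and 0.11 on those labelled WT, with the larger SD on the arrays labelled WT in 67.8%. Knl1 had SDs of 0.08 on the arrays labelled KO and 0.49 on those labelled WT, and Bub1 of 0.12 on the arrays labelled KO and 0.49 on those labelled WT. Leaving out any 1 array left 31 to 38 of the 41 genes called higher and Zwint called lower, with 31 called higher without KO5, KO6 or WT1.

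Markers of some other cell types moved with the labels as well, read against the 19.5% of all probe sets called higher and 12.4% called lower. Of 6 macrophage markers 6 were higher on the arrays labelled KO, and so were 5 of 6 endothelial markers and 5 of 6 fibroblast markers, where Pdgfra was lower (-0.29 ± 0.09 SE, adjusted p = 0.0249). Their mean log2 levels ranged from 8.95 to 9.20 on the arrays labelled KO and 8.32 to 8.73 on the arrays labelled WT for macrophages, from 10.41 to 10.52 on the arrays labelled KO and 9.78 to 10.26 on the arrays labelled WT for endothelial cells and from 11.48 to 11.63 on the arrays labelled KO and 11.07 to 11.35 on the arrays labelled WT for fibroblasts. WT6 was the lowest array for all 3 lists, and also for the proliferation, APC/C, cohesin and condensin lists. In the alternative fit with array weights, which counts arrays with more scatter for less, WT6 had the lowest weight (0.33). WT4 had the next lowest (0.56). Why WT6 was low on so many lists was not tested. Without WT6, 32 of the 41 genes were called higher and 1 lower. Of 6 satellite cell and myoblast markers 1 was higher, Pax7 (0.20 ± 0.06 SE, adjusted p = 0.0188), a count near the share over all probe sets, with list means of 8.95 to 9.06 on the arrays labelled KO and 8.77 to 8.95 on the arrays labelled WT. Of 6 adipocyte markers 3 were higher, and the list mean on KO5 (8.44) lay below all 6 arrays labelled WT, while the mean of the 41 genes was highest on KO5. Of 6 muscle fibre markers 3 were lower and 0 higher.

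Markers of blood cells stood apart on 1 array. On WT4 the mean level was 9.48 for 6 neutrophil markers, 9.88 for 4 markers of red cell precursors and 6.46 for 5 lymphocyte markers. The other 11 arrays lay at 5.78 to 6.37, 7.60 to 8.57 and 5.69 to 5.86. None of these 15 markers passed the test between the labelled groups. Without WT4, 37 of the 41 genes were called higher and 1 lower. The part of each cell type in the levels of the 41 genes was not tested. Among 8 genes of proliferation outside the 41, 7 were higher and Mki67 did not pass (0.55 ± 0.23 SE, adjusted p = 0.0854), with a median log2 difference of 0.77.

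**Figure D4:**
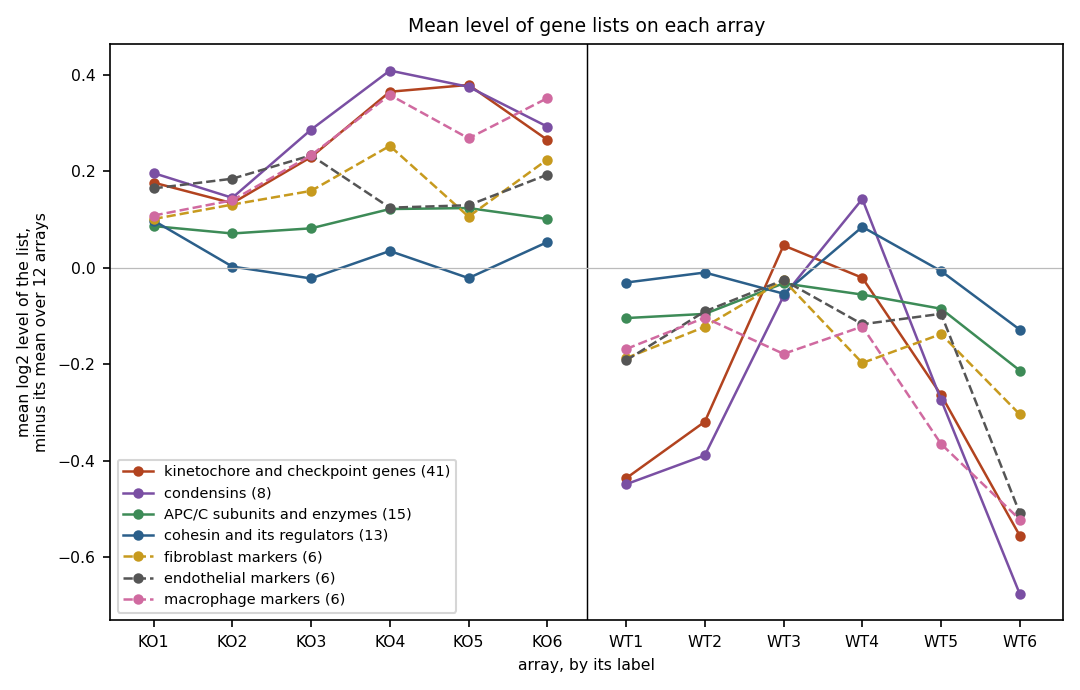
Mean log2 level of 7 gene lists on each array, relative to the mean of the list over the 12 arrays (vertical axis), with the arrays labelled KO left of the black line and those labelled WT right of it; lines only join the points of a list. All 7 lists were lowest on WT6, those of the 41 kinetochore and checkpoint genes, the APC/C and cohesin among them.

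Other genes of chromosome segregation were counted from a list of 68, of which 65 were measured. Of these, 38 were higher, 5 lower and 22 did not pass, where 19.5% of all probe sets were called higher and 12.4% lower, with a median log2 difference of 0.23. Of 9 genes that assemble or extend the centromere network, 5 were higher and 1 lower. Cenpx, a histone-fold protein, differed by 0.47 ± 0.05 and Oip5, which helps to load Cenpa, by 0.46 ± 0.11 (SE, adjusted p = 3.7e-05 and 0.00644). Cenpb, which binds a motif of centromeric repeats, was lower, with a range of 8.58 to 8.65 on the arrays labelled KO and 8.70 to 8.87 on the arrays labelled WT and a difference of -0.16 ± 0.04 (SE, adjusted p = 0.00772). With median centring it was -0.11 (adjusted p = 0.0532).

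Of 11 further outer kinetochore genes 7 were higher, led by the depolymerizing kinesin Kif2c at 0.78 ± 0.14 and Ska3, a partner of Ska1, at 0.61 ± 0.14 (SE, adjusted p = 0.000733 and 0.00463). Of 9 kinases, cyclins and checkpoint regulators 8 were higher. The mitotic kinase Plk1 differed by 0.97 ± 0.20 and the B-type cyclin Ccnb2 by 0.79 ± 0.19 (SE, adjusted p = 0.00258 and 0.00644). The APC/C, on which the checkpoint acts, had 8 of 15 genes higher, with a median difference of 0.19. Its ubiquitin-conjugating enzyme Ube2c differed by 0.69 ± 0.18 and its subunit Anapc11 by 0.32 ± 0.06 (SE, adjusted p = 0.00955 and 0.00177).

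Condensins and cohesin are the complexes that shape mitotic chromosomes. Of 8 condensin genes, whose proteins compact chromosomes, 7 were higher, with a median difference of 0.61. Ncapg differed by 0.89 ± 0.17 and Smc2 by 0.84 ± 0.16 (SE, adjusted p = 0.00109 and 0.00152). Of 13 genes of cohesin, the ring that holds sister chromatids together, 3 were higher and 4 lower, where 19.5% of all probe sets were called higher and 12.4% lower, with a median of -0.05. The largest rises were those of Esco2 (0.81 ± 0.17), which acetylates cohesin in S phase, and Cdca5 (0.52 ± 0.10 SE), which encodes sororin, with adjusted p of 0.00296 and 0.00198. The lower ones were Nipbl (-0.32 ± 0.06) and Mau2 (-0.14 ± 0.04), which load cohesin, Wapl (-0.30 ± 0.07), which releases it, and the subunit Stag1 (-0.12 ± 0.03 SE), with adjusted p of 0.00183, 0.0208, 0.00528 and 0.0137. With median centring Mau2 and Stag1 were at -0.09 and -0.07 and no longer passed (adjusted p = 0.132 and 0.153). The differences between these lists were not tested.

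**Figure D5:**
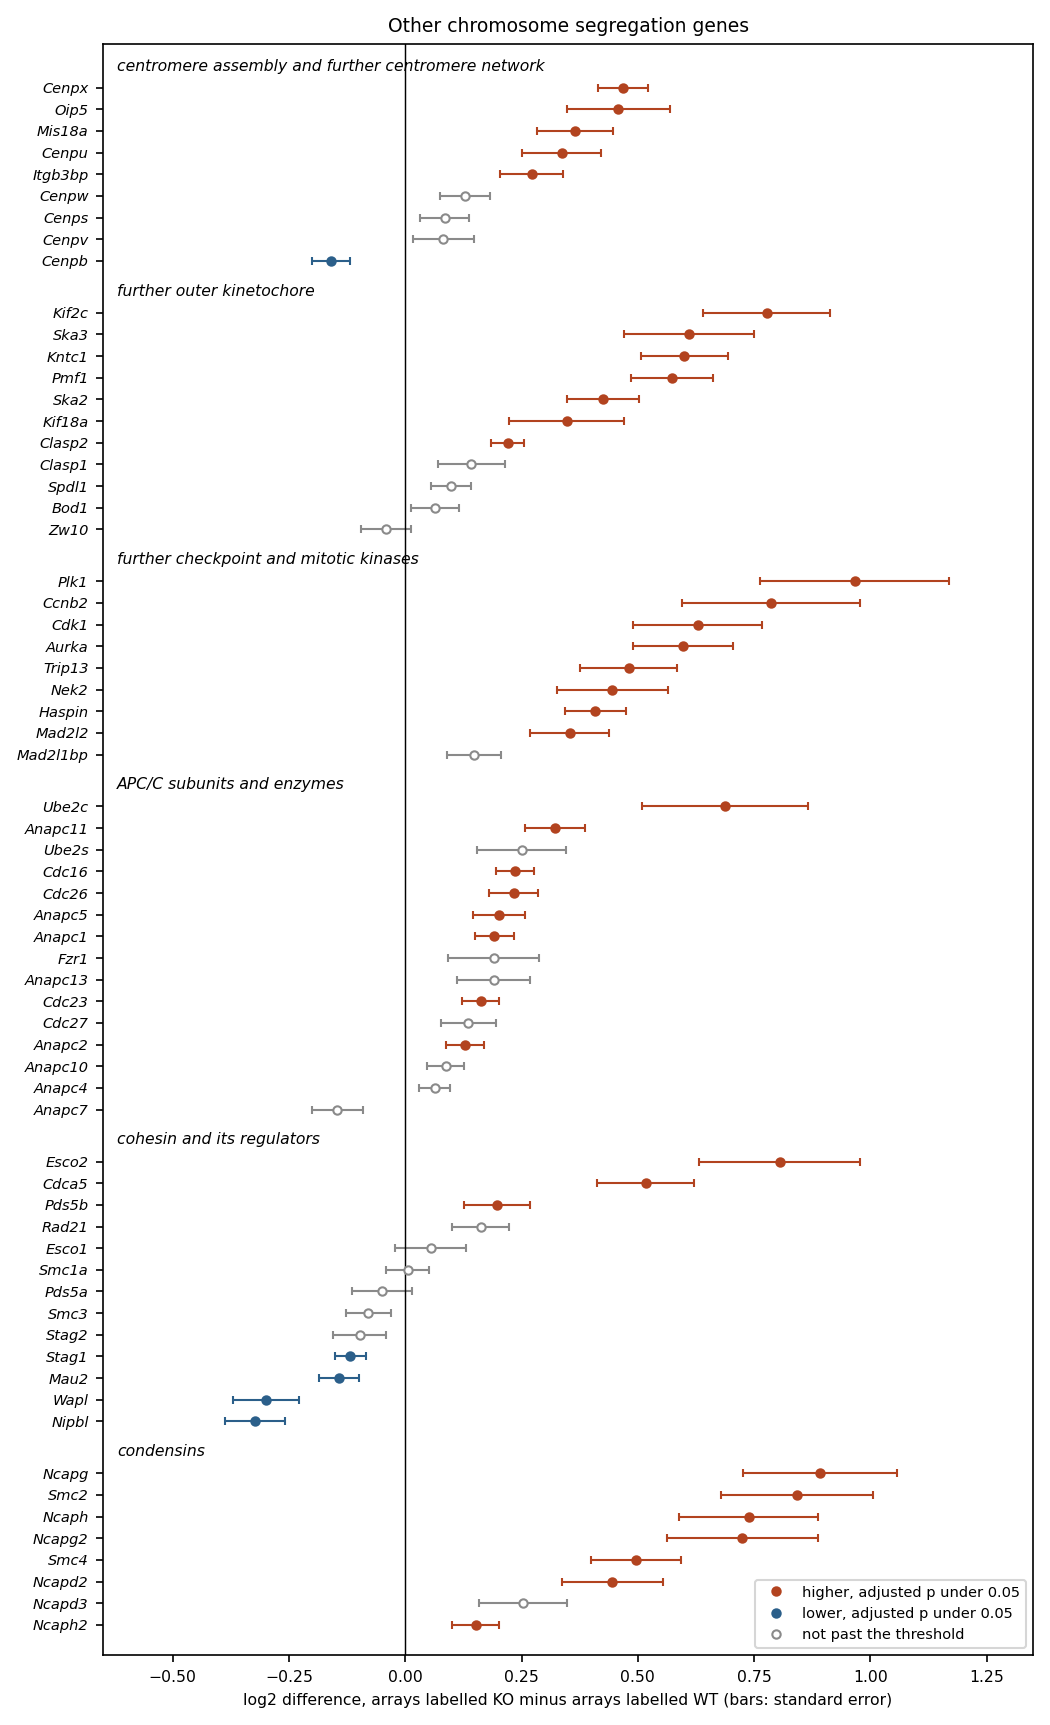
Log2 difference of 65 other chromosome segregation genes, arrays labelled KO minus arrays labelled WT (horizontal axis, bars give the standard error), grouped by complex. Of the condensin genes 7 of 8 lay to the right of 0 past the threshold, while the cohesin list held 3 higher and 4 lower genes.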

How the data were processed

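RNA of quadriceps muscle from 12 mice was measured on 12 arrays, 6 labelled KO and 6 labelled WT. The authors extracted the arrays with Affymetrix software and deposited normalized log2 levels per probe set. For the summary algorithm, its version and the genome build, nothing is given in the sources used here. The table held 35556 probe sets, of which 21789 carried 1 gene symbol and were tested, 1621 carried several and 12146 were not listed in the annotation table. Each gene was taken at the probe set with the highest mean. The deposited values were used without further scaling, and arrays were compared with limma 3.58.1 (R 4.3.3; lmFit and eBayes, no covariate), with Benjamini-Hochberg adjustment and a threshold of 0.05. The values hold no detection calls, so that background signal was not measured. Each p-value sets a difference between the labelled groups against the spread between these mice.

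The 41 genes, the 68 other genes and the marker lists were chosen with earlier results of these data known. Genes named in the text were all 41, Cfl2 and, in each other pathway list, the 2 past the threshold with the largest absolute difference and every gene that was lower. Marker genes (Lep, Pdgfra, Pax7 and Mki67) and the promoter of Zwint were named after their values were seen. The tests were checked on simulated data. Each array was left out in turn, and the other alternatives were median centring, quantile normalization, a replicate block, array weights, robust and trended eBayes, the methods' t-test, a filter on dim probe sets, all rows, and the mean over probe sets. Promoter windows were matched to 35 of the 41 genes by gene ID in RefSeq (GRCm38.p6), on both strands.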

Additional observations from a re-analysis of the deposited data

Results flagged for a closer look

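Bub1b stood apart on 1 array labelled KO. KO5 was at a log2 level of 8.35, the nearest of the other arrays labelled KO at 8.11 and the lowest at 8.03, so that the gap made up 0.75 of the range. Among 120 sets of values checked, each a named gene or the mean of the 41 genes in 1 labelled group, this was the 1 set with an array so far from the others, and chance gives about 1 in 20.

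The means of the cell type marker lists had such an array in 8 of 20 sets, where the lists share arrays and are not independent. WT4 was the highest array labelled WT for neutrophil (9.48, the next at 6.37), red cell precursor (9.88, the next at 8.08) and lymphocyte markers (6.46, the next at 5.75). WT6 was the lowest array labelled WT for endothelial markers (9.78, the next at 10.10) and for satellite cell and myoblast markers (8.77, the next at 8.88). For adipocyte markers KO5 was lowest among the arrays labelled KO (8.44, the next at 9.56) and WT1 highest among those labelled WT (9.35, the next at 8.76). KO4 was the highest array labelled KO for neutrophil markers (6.15, the next at 5.88).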

How the results depend on the processing

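Of the 41 genes, 33 kept their side of the threshold and their direction under all 22 alternatives, 12 of which left out 1 array, and 0 reversed. The number called higher was 34 with all rows of the table, 37 without dim probe sets or with array weights, 38 with quantile normalization, 39 with median centring and 32 by the methods' t-test after Benjamini-Hochberg adjustment (38 at an unadjusted p under 0.05), against 36 with the values as deposited. It was 31 to 38 when 1 array was left out. Zwint was lower under each. The calls of Birc5, Cenph, Cenpl, Cenpp and Nsl1 were lost under 6 to 10 alternatives, and Espl1, Mad1l1 and Ska1 passed under 8, 3 and 3. Among the other 65 genes, the 38 called higher became 48 with median centring and 47 by the methods' t-test without adjustment, and were 34 to 42 when 1 array was left out. The 5 called lower became 3 with the replicate block and 2 with median centring, and stayed between 5 and 6 when 1 array was left out; the cause was not tested.

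The study's methods describe 6 pairs of null and wild type littermates, but no label ties the number of an array to a litter. Arrays were not paired by their numbers in the fit. A check by number cannot show whether pairing by litter matters. Same-numbered arrays had deviations correlated above 0.1 in 2 of 6 pairs, and 2 of 6 arrays correlated best with their own number. With the replicate block 6074 probe sets were called, against 6952 without it, and 36 of the 41 genes were higher in both fits, while Cenpp was lost and Espl1 passed. Stag1 and Mau2 were no longer called lower with the block (adjusted p = 0.0568 and 0.0637). Array values hold no background measure, so that small changes of dim genes such as Ska1 cannot be told from a change in background. The same limit applies to dim genes that passed, such as Cenph, Cenpi, Cenpl, Cenpk and Cenpp. Their means on the arrays labelled WT were 5.25, 5.39, 5.52, 5.54 and 5.78, against 5.26 for Ska1.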
